A study of Homo sapiens with 4 samples.

Results

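The splicing factor genes were the deposited rows whose symbols belong to the SRSF, HNRNP, SF3A, SF3B, SNRP and PRPF families, together with the 7 singly named genes BCLAF1, CCAR1, THRAP3, SRRM1, SRRM2, U2AF1 and U2AF2. They made up 74 of the 14431 rows of the table. RNA was sequenced from HGC27, a human gastric cancer cell line, in 2 control libraries labelled wild type and 2 libraries in which AARS1 was knocked down (siAARS1). AARS1 is the cytosolic alanyl-tRNA synthetase. The cells of all 4 libraries were in DMEM lacking glucose, with serum and 25 mM lactate added, for 24 h according to the labels, although the text of the study gives another duration for this experiment. Symbols with a hyphen, such as antisense transcripts, and pseudogene symbols ending in P and a number were left out, which removed 9 rows, and THRAP3 was kept because it is named singly. The 74 rows carried 73 symbols, since SRSF8 was listed under 2 identifiers. All 74 passed the filter on low values, a mean of at least 1 CPM (a read count scaled to library size) in 1 group.

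Splicing factors remove introns from pre-mRNA. SR proteins (SRSF genes) bind exons through RNA recognition motifs and recruit the machinery through their arginine- and serine-rich tails, while heterogeneous nuclear ribonucleoproteins (HNRNP genes) coat nascent RNA and often oppose them. The U1 and U2 snRNPs recognise the 5′ splice site and the branch site, with SNRP genes encoding their Sm rings and particle-specific subunits, SF3A and SF3B genes encoding the subunits that hold U2 at the branch site, and U2AF1 with U2AF2 reading the 3′ splice site. PRPF genes encode proteins of the U1 particle, the tri-snRNP and the catalytic core, and BCLAF1, THRAP3, CCAR1, SRRM1 and SRRM2 are cofactors that link splicing with transcription or join the SR proteins on exons. In many splicing factor genes the transcripts are themselves controlled by splicing of exons that lead to decay, and gene-level values cannot separate such forms.

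Related genes of this set differ in the composition of their coding sequence, and the stretches below show it for 2 pairs in which 1 gene rose far more than the other. Each is the 150 nt at the centre of the coding sequence of the annotated principal transcript in GENCODE v29 (GRCh38), written 5′ to 3′ on the coding strand with G and C in capitals. The BCLAF1 and THRAP3 stretches lie within exon 5 of each gene, at chr6:136276070-136276219 on the minus strand and chr1:36289376-36289525 on the plus strand. The HNRNPH1 stretch runs across exons 5 and 6 (chr5:179618029-179618262, minus strand, intron left out) and the HNRNPF stretch lies in exon 3 (chr10:43387189-43387338, minus strand).
BCLAF1: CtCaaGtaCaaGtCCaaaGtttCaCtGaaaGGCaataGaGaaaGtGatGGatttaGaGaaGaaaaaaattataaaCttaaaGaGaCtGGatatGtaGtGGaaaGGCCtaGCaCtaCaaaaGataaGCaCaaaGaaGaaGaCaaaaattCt
THRAP3: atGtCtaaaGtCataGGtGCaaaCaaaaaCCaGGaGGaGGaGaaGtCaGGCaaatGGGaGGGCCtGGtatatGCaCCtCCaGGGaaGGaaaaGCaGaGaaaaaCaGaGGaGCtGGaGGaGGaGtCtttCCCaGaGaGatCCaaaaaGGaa
HNRNPH1: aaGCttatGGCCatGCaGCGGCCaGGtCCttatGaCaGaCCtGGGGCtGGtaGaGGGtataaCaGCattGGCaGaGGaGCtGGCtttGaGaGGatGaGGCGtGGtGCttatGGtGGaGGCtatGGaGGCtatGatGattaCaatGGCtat
HNRNPF: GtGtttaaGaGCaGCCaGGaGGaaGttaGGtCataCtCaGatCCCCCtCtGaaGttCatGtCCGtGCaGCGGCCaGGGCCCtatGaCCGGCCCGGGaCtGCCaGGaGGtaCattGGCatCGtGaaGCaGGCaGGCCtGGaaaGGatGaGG
The stretch of BCLAF1 holds 33.3% G and C against 48% in THRAP3, and that of HNRNPH1 52.7% against 58.7% in HNRNPF. Over the whole coding sequence the contrast was greatest at the third position of codons, where most changes leave the amino acid as it is. G and C made up 31.7% of these positions in BCLAF1, 47.4% in THRAP3, 42.3% in HNRNPH1 and 64.1% in HNRNPF. Over the whole transcript, which includes the UTRs, HNRNPH1 held more G and C (51.6%) than HNRNPF (48.0%), so this pair ran the other way on that measure. So did PRPF38B (41.8%) with PRPF38A (40.1%) and HNRNPA2B1 (45.4%) with HNRNPA0 (41.1%), where the first of each pair rose more. These values rest on 1 annotated transcript per gene, and in that of HNRNPH1 the coding sequence held 47.0% and the 3′ UTR 34.2%.

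Listed genes took 30653210 to 33522573 reads per library, so that 3 reads, the upper limit that a count of 0 allows for counting error only, equalled 0.0880 to 0.0971 CPM. SRSF12 was the member with the fewest reads, down to 38 in a library, and every other member had at least 146. The targeted gene, listed as AARS, had control levels of 428 and 417 CPM and knockdown levels of 292 and 298 CPM, a log2 change of -0.52 (limma adjusted p = 2.52e-11). Nothing in the labels says that the 2 libraries of a group came from separate cultures, so p-values measure the spread between these libraries, which may be technical. Of 6 epithelial markers 3 were listed, summing to 30.6 to 30.8 CPM in control and 8.0 to 9.36 CPM in siAARS1 libraries, mostly KRT8, with CDH1 at 0.680 to 2.55 CPM. EPCAM, KRT18 and KRT19 were not among the rows. Of 11 markers of other cell types 5 were listed, with sums of 6218 and 6409 CPM without knockdown and 4533 and 4426 CPM with it, nearly all from the collagen genes COL1A1 and COL3A1 and from DCN. DCN went the other way from that sum, with 239 and 250.3 CPM, then 258 and 270.1 CPM. PTPRC, CD3E, PECAM1, VWF, HBB and ALB were not among the rows. Their part in the results below was not tested, and in bulk RNA fewer cells of a type and less RNA per cell cannot be told apart.

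Splicing factor genes were more often higher than lower in siAARS1 libraries. Of the 74 members, 56 passed the threshold (limma adjusted p under 0.05), which is 75.7% against 70.7% of all 14199 genes tested. Of them 43 rose and 13 fell, or 58.1% and 17.6% of the members, where 32.6% of all genes rose and 38.0% fell. After scaling each library to its median gene 25 members were higher and 32 lower, beside 3306 and 8173 of all 14199 genes. Rises were then 43.9% of the members' calls and 28.8% of the calls over all genes, against 76.8% and 46.2% as deposited. The counts after median scaling given below for each family are to be read beside the same 3306 and 8173. That scaling took the median log2 change over all genes from -0.05 to -0.27 and the median of the members from 0.19 to -0.03, and the distance between them was 0.24 under both. At least 2-fold, 10 members rose (13.5%, against 10.6% of all genes) and 0 fell (1.63% of all genes). That count of 0 was also found at an unadjusted p under 0.05 in limma, in edgeR and in DESeq2. Levels in the groups did not overlap for 66 members (89.2%, against 85.1% of all genes). Together the members took 2.08% and 2.04% of the listed CPM in the control libraries and 2.49% and 2.53% in the siAARS1 libraries, and the HNRNP genes alone took 1.17% and 1.14%, then 1.44% and 1.47%. All 4 shares of the siAARS1 libraries lay above those of the controls.

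**Figure D1:**
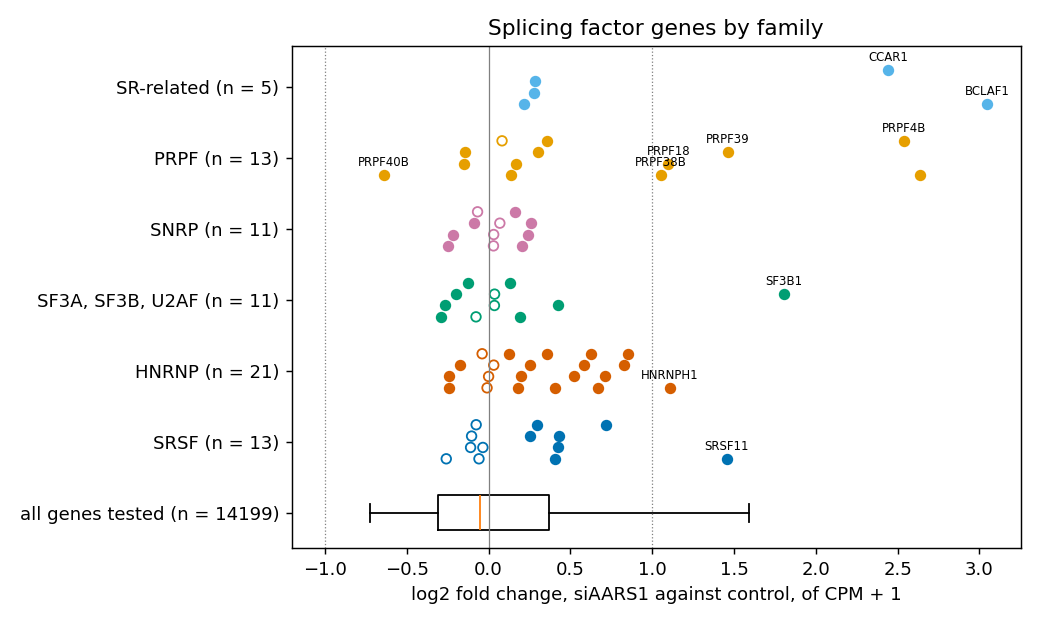
Each point is 1 splicing factor gene in its family, with the log2 fold change of CPM + 1 (siAARS1 against control, n = 2 and 2) on the horizontal axis, the dotted lines at a 2-fold change, filled points past the threshold and open points not. The lowest row gives all 14199 genes as a box from the lower to the upper quartile with the median inside and whiskers to the 5th and 95th percentiles. The points reach from -0.64 (PRPF40B) to 3.05 (BCLAF1), and no point lies left of the lower dotted line. After median scaling all points would stand 0.22 further to the left.

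The cofactors of the SR proteins held the largest rise of the 74 members. BCLAF1, an arginine- and serine-rich protein of the complexes that assemble on mRNA (ENSG00000029363, chr6:136256627-136289851), had 15.1 and 16.5 CPM in the controls against 134 and 142 CPM after knockdown. The means were 15.8 ± 0.933 and 138 ± 6.22 CPM (SD, n = 2), an 8.74-fold difference with a log2 change of 3.05 (SE 0.0581, limma adjusted p = 1.71e-20). It ranked 6 among the rises of all genes tested. CCAR1, a coactivator that also joins early spliceosomes (ENSG00000060339, chr10:68721012-68792377), had control levels of 19.0 and 19.4 CPM and knockdown levels of 103 and 114 CPM. Its rise was 5.67-fold (log2 fold change 2.44, SE 0.0583, limma adjusted p = 3.90e-19). Both groups of both genes stood far apart.

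THRAP3, the close relative of BCLAF1, rose much less, from 225 and 221 CPM to 270.0 and 273 CPM, a log2 change of 0.28 (SE 0.0367, limma adjusted p = 6.21e-07). SRRM1 had 95.2 and 97.3 CPM without knockdown and 112 and 122 CPM with it, and SRRM2 had 816 and 856 CPM, then 982 and 964 CPM. The latter encode large serine- and arginine-rich proteins of the spliceosome and of nuclear speckles. Their log2 fold changes were 0.28 (SE 0.0468, limma adjusted p = 2.03e-05) and 0.22 (SE 0.0353, limma adjusted p = 1.17e-05). All 5 genes of this group rose as deposited, and after median scaling only BCLAF1 and CCAR1 passed the threshold, with SRRM2 at -0.00064.

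**Figure D2:**
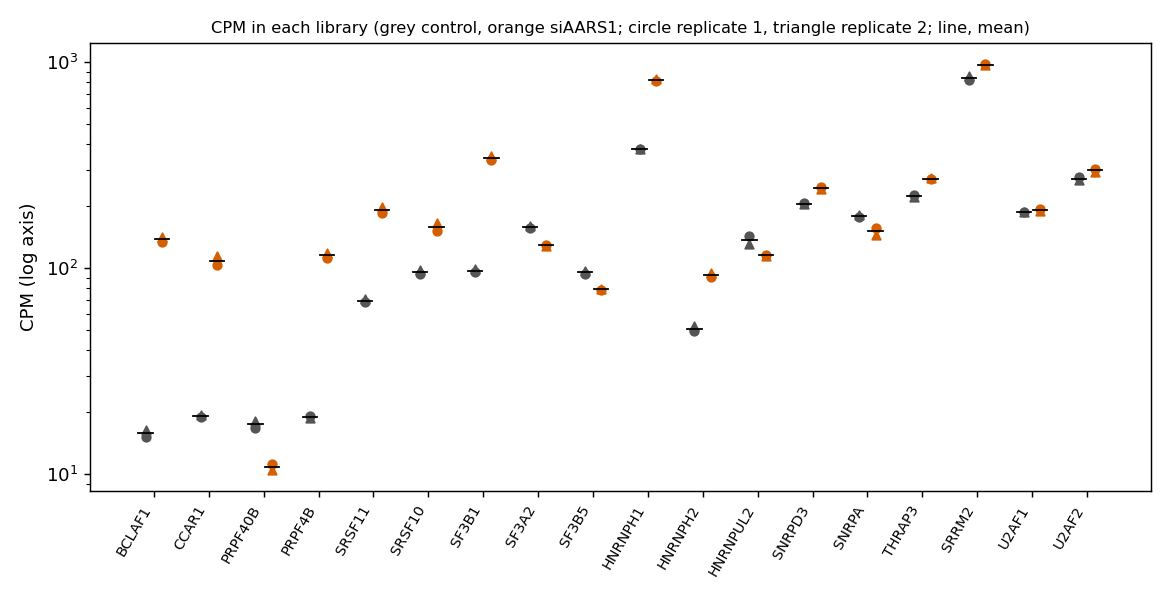
CPM on a log axis for a selection of the named members, with grey for control, orange for siAARS1, circles for replicate 1, triangles for replicate 2 and a line at each mean. The siAARS1 points of BCLAF1, CCAR1, PRPF4B, SF3B1, SRSF11 and HNRNPH1 stand clear above both controls, while those of U2AF1 (194 and 190.2 against 187 and 188 CPM) lie close to them.

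The PRPF genes had the most members at or past 2-fold. Of 13, 9 rose, 3 fell and PRPF19 did not pass, 5 of the rises were at least 2-fold, and the median log2 fold change was 0.30 (6 higher and 4 lower after median scaling). PRPF4B, a kinase that phosphorylates tri-snRNP proteins (chr6:4021267-4064983), had 19.2 and 18.8 CPM, then 112 and 119 CPM, a 6.07-fold rise (log2 fold change 2.54, SE 0.0553, limma adjusted p = 1.01e-19). PRPF39, a protein associated with the U1 snRNP, had 13.8 and 16.3 CPM, then 41.6 and 44.6 CPM (log2 fold change 1.46, limma adjusted p = 2.68e-13). PRPF18, which acts in the second step of splicing, and PRPF38B, related to a factor of the precatalytic spliceosome, had log2 fold changes of 1.10 and 1.05. In each of these 4 genes the lower siAARS1 library was above the higher control.

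PRPF40B, also associated with the U1 snRNP, had the largest fall of all 74 members. It had control levels of 16.7 and 18.2 CPM and knockdown levels of 11.2 and 10.4 CPM, with means of 17.5 ± 1.02 and 10.8 ± 0.564 CPM (SD, n = 2) and a log2 change of -0.64 (SE 0.0897, limma adjusted p = 1.81e-06). PRPF31, whose protein clamps the U4 snRNA, had 58.7 and 56.9 CPM, then 54.2 and 49.9 CPM (log2 fold change -0.15, SE 0.0545, limma adjusted p = 0.0183). Without control replicate 1 that change was -0.13 (limma adjusted p = 0.119) and without siAARS1 replicate 2 it was -0.09 (limma adjusted p = 0.181), so the call rests on those libraries. PRPF6, the bridge between the tri-snRNP particles, was at -0.14, PRPF8, the scaffold of the catalytic core, at 0.14, PRPF4 at 0.17, PRPF3 at 0.30 and PRPF38A at 0.36, all past the threshold. PRPF19, a ubiquitin ligase, was at 0.08 (limma adjusted p = 0.0549). It passed the threshold with the replicate number as a block (limma adjusted p = 0.0450). It also passed in edgeR with TMM (0.12, adjusted p = 0.00989) and in DESeq2 (0.14, adjusted p = 0.00335). Under both corrections for composition described below PRPF19 was higher past the threshold (0.38 and 0.44), and after median scaling it was lower (-0.14). Its change was 0.05 without siAARS1 replicate 1 and 0.12 without siAARS1 replicate 2.

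Among the subunits of U2 and the 3′ splice site, SF3B1 stood apart. It encodes the large scaffold that clamps the branch site (ENSG00000115524, chr2:197389784-197435091). It had 95.8 and 98.7 CPM without knockdown and 335 and 349 CPM with it. The means were 97.3 ± 2.05 and 342 ± 9.53 CPM (SD, n = 2), a 3.52-fold rise with a log2 change of 1.80 (SE 0.0396, limma adjusted p = 1.02e-19). Of the 9 SF3 genes, 3 rose (SF3B1, SF3A3 and SF3B3), 4 fell and 2 did not pass the threshold. Over all genes tested 32.6% rose and 38.0% fell, so these counts do not set the SF3 genes apart. The median of the 11 genes with U2AF1 and U2AF2 was 0.04, with 2 higher and 7 lower after median scaling.

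SF3A3, which contacts the U2 snRNP core, rose from 179 and 184 CPM to 244 and 243 CPM (log2 fold change 0.42, SE 0.0377, limma adjusted p = 2.02e-09). SF3A2, its partner in the same trimer, fell from 157 and 159 CPM to 129.7 and 128 CPM (log2 fold change -0.29, SE 0.0400, limma adjusted p = 1.35e-06), and SF3A1, the trimer's remaining subunit, was at 0.04. SF3B5, a small subunit that packs against SF3B1 and SF3B3, fell from 94.0 and 96.9 CPM to 78.5 and 79.5 CPM (log2 fold change -0.27, SE 0.0451, limma adjusted p = 1.88e-05). SF3B2 was at -0.20 and SF3B14, now named SF3B6 and found next to the branch adenosine, at -0.12, both past the threshold. After the correction for GC content and length described below, SF3A2 was at 0.10, SF3B5 at 0.03, SF3B2 at 0.07 and SF3B14 at -0.16. The call of SF3B14 was lost without control replicate 1 (-0.11), control replicate 2 (-0.14) or siAARS1 replicate 1 (-0.08) and in edgeR with TMM (-0.09) and DESeq2 (-0.07). U2AF1, which reads the AG at the end of the intron, was at 0.04 (limma adjusted p = 0.406, 95% interval -0.04 to 0.12), and the reference genome holds a near-identical copy of it that can share its reads. U2AF2, which binds the polypyrimidine tract, had 276 and 268 CPM, then 304 and 293 CPM (log2 fold change 0.13, SE 0.0371, limma adjusted p = 0.00305), and after median scaling these were at -0.18 and -0.09.

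The SNRP genes spanned the narrowest range of the families, from -0.25 to 0.26. Of 11, 4 rose, 3 fell and 4 did not pass the threshold, the median was 0.03, and after median scaling 0 were higher and 7 lower. SNRPA, an RNA-binding protein of the U1 snRNP, fell from 177 and 181 CPM to 156 and 146 CPM (log2 fold change -0.25, SE 0.0421, limma adjusted p = 2.37e-05). SNRPA1, a leucine-rich protein of the U2 snRNP, rose from 62.8 and 61.9 CPM to 73.5 and 74.2 CPM (log2 fold change 0.24, SE 0.0478, limma adjusted p = 0.000134). The 7 genes of the Sm ring, whose proteins stand in equal number within a ring, did not move as one. Of them 3 were higher, 2 lower and 2 not past the threshold. Of all genes tested 32.6% rose and 38.0% fell, so these counts do not set the ring apart. SNRPD3 rose from 206 and 204 CPM to 248 and 243 CPM (log2 fold change 0.26, SE 0.0372, limma adjusted p = 2.78e-06). SNRPD2 fell from 232 and 219 CPM to 187 and 201 CPM (log2 fold change -0.22, SE 0.0426, limma adjusted p = 0.000122). SNRPD1 and SNRPE were at 0.21 and 0.16, SNRPB at -0.09 (limma adjusted p = 0.0481), and SNRPF and SNRPG at 0.03 each. Under the corrections for GC content and length and for the coding sequence and 3′ UTR described below, SNRPD3 stayed higher (0.48 and 0.61). SNRPD2 was then also higher (0.09 and 0.35), while SNRPD1 (-0.71 and -0.11) and SNRPE (-0.06 and -0.44) were lower. SNRPF (-0.51 and -0.74) and SNRPG (-0.04 and -0.93) were lower too. The fall of SNRPB missed the threshold without control replicate 1 (-0.04), without siAARS1 replicate 1 (-0.07), without siAARS1 replicate 2 (-0.11), after quantile normalization (-0.08), with a pseudocount of 0.1 and in edgeR with TMM (-0.05) and DESeq2 (-0.04), and SNRPB was higher past the threshold under both corrections for composition described below (0.24 and 0.51).

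Of the 13 SR protein rows 7 rose and 0 fell past the threshold, with a median of 0.26, but after median scaling 5 were higher and 6 lower. SRSF11, which cooperates with other SR proteins on exons (chr1:70205682-70253052), had 68.2 and 70.5 CPM in the controls against 186 and 198 CPM after knockdown. The means were 69.3 ± 1.62 and 192 ± 8.44 CPM (SD, n = 2), a 2.77-fold rise with a log2 change of 1.46 (SE 0.0444, limma adjusted p = 1.84e-17). SRSF10, known as a repressor when dephosphorylated, rose 1.65-fold, from 93.8 and 97.9 CPM to 151 and 166 CPM (log2 fold change 0.72, SE 0.0476, limma adjusted p = 1.30e-11). The 5 other rises were SRSF6 at 0.43, SRSF3 at 0.43, SRSF7 at 0.40, SRSF1 at 0.30 and SRSF5 at 0.26. SRSF4 (-0.03), SRSF9 (-0.06), SRSF2 (-0.08), both rows of SRSF8 (-0.10 and -0.11) and SRSF12 (-0.26) did not pass the threshold.

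The HNRNP genes were the largest family by number and by CPM. Of 21, 14 rose, 3 fell and 4 did not pass the threshold, with a median log2 fold change of 0.25, and after median scaling 10 were higher and 8 lower. HNRNPH1, which binds runs of G near splice sites (ENSG00000169045, chr5:179614178-179634784), had control levels of 380.4 and 378 CPM and knockdown levels of 807 and 832 CPM. The means were 379 ± 1.54 and 819.5 ± 17.1 CPM (SD, n = 2), 2.16-fold apart, with a log2 change of 1.11 (SE 0.0345, limma adjusted p = 2.60e-17). HNRNPH2, its copy on another chromosome, rose from 49.4 and 52.2 CPM to 90.2 and 94.9 CPM (log2 fold change 0.85, SE 0.0502, limma adjusted p = 1.66e-12), and HNRNPH3 was at 0.71. HNRNPF, which binds the same G-runs, had 391 and 389 CPM, then 398 and 378 CPM, a log2 change of -0.01 (limma adjusted p = 0.834, 95% interval -0.09 to 0.07). Its siAARS1 libraries lay on either side of its controls.

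HNRNPA2B1 rose from 1019 and 975 CPM to 1727 and 1813 CPM (log2 fold change 0.83, limma adjusted p = 1.13e-14), and HNRNPA3 was at 0.67. These bind the same kind of short motif as HNRNPA1, the most abundant member per length in control (747 CPM per kb of transcript), which was at 0.20. HNRNPA1 and HNRNPA1L2 (0.25) share near-identical sequence with each other and with pseudogenes, so reads may be divided between them and both values are uncertain, and HNRNPA1L2 missed the threshold without control replicate 2 (0.17) or siAARS1 replicate 1 (0.14) and after median scaling (0.03). HNRNPU, a nuclear scaffold protein that binds RNA and chromatin, rose from 852 and 839 CPM to 1299 and 1309 CPM (log2 fold change 0.62, limma adjusted p = 3.49e-13). Its antisense neighbour HNRNPU-AS1, which is not a member, had 6.54 and 7.63 CPM, then 25.2 and 31.4 CPM, and because the use of strand is not given in the sources used here their reads may not be separable. HNRNPR (0.58), HNRNPDL (0.52), HNRNPM (0.40), HNRNPK (0.36), HNRNPD (0.18) and HNRNPC (0.12) also rose.

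The 3 HNRNP genes that fell were HNRNPA0, HNRNPUL2 and HNRNPUL1. HNRNPA0, an intronless relative of HNRNPA1, had 373 and 345 CPM without knockdown and 297 and 311 CPM with it (log2 fold change -0.24, SE 0.0408, limma adjusted p = 2.36e-05). HNRNPUL2, a relative of HNRNPU, had 142 and 131 CPM, then 116 and 114 CPM (log2 fold change -0.24, SE 0.0451, limma adjusted p = 6.46e-05), and it shares exons with a readthrough transcript into BSCL2 that is listed as a row of its own. HNRNPUL1 was at -0.17. In HNRNPL, HNRNPLL, HNRNPAB and HNRNPF the log2 fold changes lay between -0.04 and 0.03 and did not pass the threshold.

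Ratios within a library put relatives side by side and do not change when a library is multiplied by a factor. They are ratios of CPM, not of levels per length, so they compare libraries and not the abundance of the relatives. The pairs were chosen with the values known, and 2 libraries against 2 cannot give an exact permutation p under 0.333, so the ratios are a description. BCLAF1 stood at 0.067 and 0.074 times THRAP3 in control, then at 0.495 and 0.521 times. SF3B1 stood at 0.247 and 0.253 times SF3B2 in control and at 0.969 and 1.05 times in siAARS1 libraries. HNRNPH1 stood at 0.973 and 0.971 times HNRNPF in control and at 2.03 and 2.20 times in siAARS1 libraries, and HNRNPA2B1 went from 2.73 and 2.82 times HNRNPA0 to 5.82 times in both. SF3A3 to SF3A2 went from 1.14 and 1.16 to 1.88 and 1.90. SNRPA1 to SNRPA went from 0.354 and 0.342 to 0.470 and 0.510, and U2AF2 to U2AF1 from 1.47 and 1.43 to 1.56 and 1.54. In each of these pairs the 2 siAARS1 ratios lay above both control ratios, but the gene that rose more was put first in each. Of all genes tested 85.1% did not overlap between the groups, so the lack of overlap sets no pair apart.

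**Figure D3:**
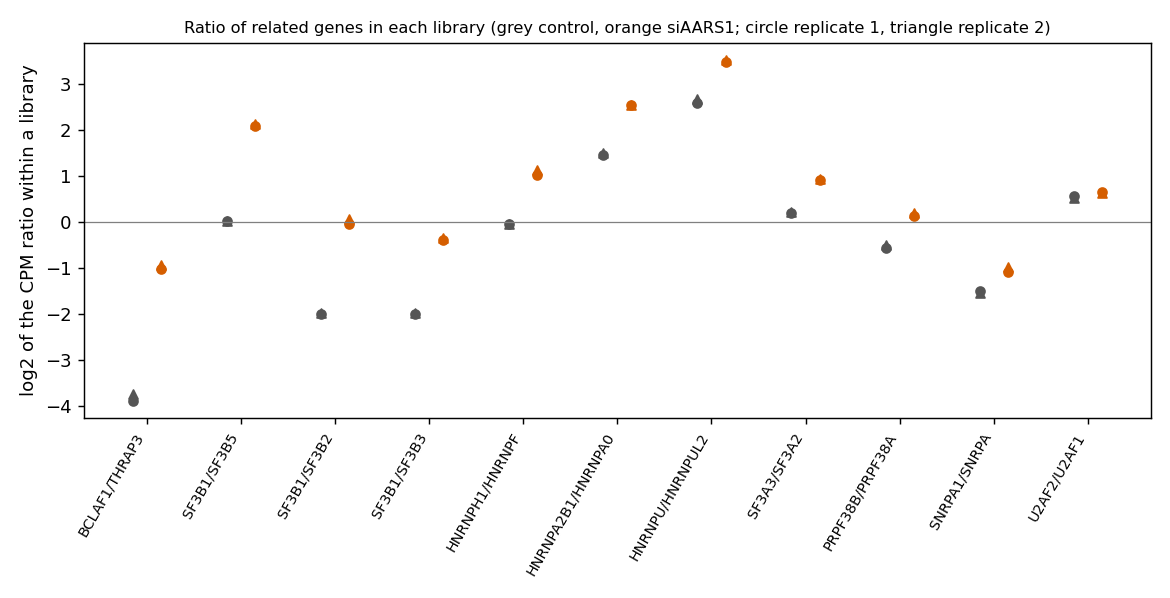
The log2 of the CPM ratio of related splicing factor genes within each library, with grey for control, orange for siAARS1, circles for replicate 1 and triangles for replicate 2. The groups stand 2.84 apart for BCLAF1 to THRAP3, 2.01 for SF3B1 to SF3B2 and 0.10 for U2AF2 to U2AF1.

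The changes of the members followed the base composition of their transcripts. Across the 72 members with an annotated transcript, the log2 fold change and the GC content of the transcript correlated with r = -0.52 and rho = -0.56, the GC content of the coding sequence with r = -0.59 and rho = -0.63, and that of the third codon positions with r = -0.60 and rho = -0.71. The correlation with the logarithm of transcript length was r = 0.31 and rho = 0.32. These points share the same 4 libraries, and across all 13819 genes with a value the correlation with GC content was r = -0.63 and rho = -0.65. The 10 members at least 2-fold higher had GC contents of 36.6% to 51.6%, with a median of 40.1%. The 13 that fell had 41.1% to 66.6%, with a median of 56.6%. HNRNPH1 was the richest in G and C of the 2-fold rises, and 8 of the 10 lay in the lowest quintile of all genes (27.8% to 41.5%). By quintile from low to high GC content the members' medians were 0.43, 0.44, 0.19, -0.12 and -0.08, beside 0.77, 0.20, -0.12, -0.24 and -0.30 for all genes. Members poor in G and C without a rise past the threshold included SNRPB2, at 37.5% and 0.07, SNRPG, at 40.2% and 0.03, and SRSF12, at 38.0% and -0.26.

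**Figure D4:**
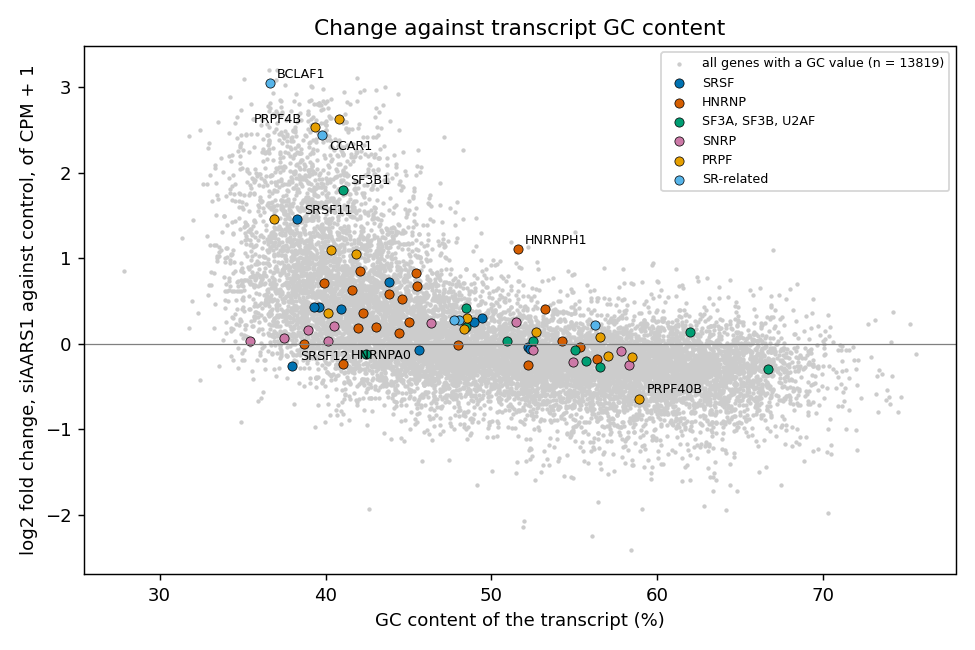
Log2 fold change of CPM + 1 (siAARS1 against control) against the GC content of the transcript in percent, with splicing factor genes coloured by family over all genes in grey. BCLAF1, at 36.6% GC, has the highest point of the members at 3.05, and PRPF40B, at 58.9% GC, the lowest at -0.64.

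The trend on GC content and length over all genes was then taken out of each library. Past the threshold in limma 47 of 72 members were higher and 17 lower, beside 4547 and 4602 of 13819 genes. At least 2-fold changed were 7 members, beside 5.49% of all genes. Of these 7, 5 were higher and 2 lower, HNRNPA0 at -1.43 and HNRNPLL, which had been at 0.00 as deposited, at -1.0. All 10 members that had been at least 2-fold higher remained higher and past the threshold, and 5 of them remained at least 2-fold higher. Among their corrected log2 fold changes, PRPF38B was at 0.43, BCLAF1 at 1.49, PRPF4B at 1.57, CCAR1 at 1.48, HNRNPH1 at 1.28, SF3B1 at 0.76, PRPF18 at 0.72, PRPF39 at 0.56 and SRSF11 at 0.46. With a trend on the coding sequence and 3′ UTR in its place, BCLAF1 was at 1.77, PRPF4B at 1.18, CCAR1 at 1.15, SRSF11 at 1.02, HNRNPH1 at 0.79, SF3B1 at 0.75, PRPF38B at 0.56, PRPF18 at 0.34 and PRPF39 at 0.06. Of the 9 with a value there, 8 remained higher and past the threshold and 4 remained at least 2-fold higher, and PRPF39 lost its call (limma adjusted p = 0.454). SNRPB2, at -1.03, was the 1 member at least 2-fold lower under that correction. No matching counts over all genes at least 2-fold higher are given for either correction, so the calls kept do not set the members apart. Both corrections also take out any change that truly follows composition. They rest on 1 annotated transcript per gene, which may not be the main form in these cells.

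The calls of other members changed under the same corrections. Of the 56 members called as deposited, 33 kept their direction and their call after the correction for GC content and length, and 17 were called in the opposite direction. With the coding sequence and 3′ UTR 34 of 55 kept both and 12 were opposite. No matching counts over all genes are given here, so these do not set the members apart. Of the 43 rises, 23 stayed past the threshold under both corrections, among them SRSF10, SRSF1, SNRPD3, SF3A3, U2AF2, HNRNPH2, HNRNPA2B1 and THRAP3. Rises that turned to falls after the first correction included SRSF6 (-0.51), SRSF3 (-0.54), HNRNPU (-0.36), HNRNPK (-0.14), HNRNPA1 (-0.31) and SNRPD1 (-0.71). Of the 13 falls, 3 stayed past the threshold under both, and PRPF40B was at -0.34 and -0.45. The falls of SNRPA, SNRPD2, SF3A2 and PRPF31 turned to rises under both, and HNRNPA0 was at -1.43 and -0.19 after the respective corrections. The log2 fold change of AARS was then -0.31 and -0.42.

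**Figure D5:**
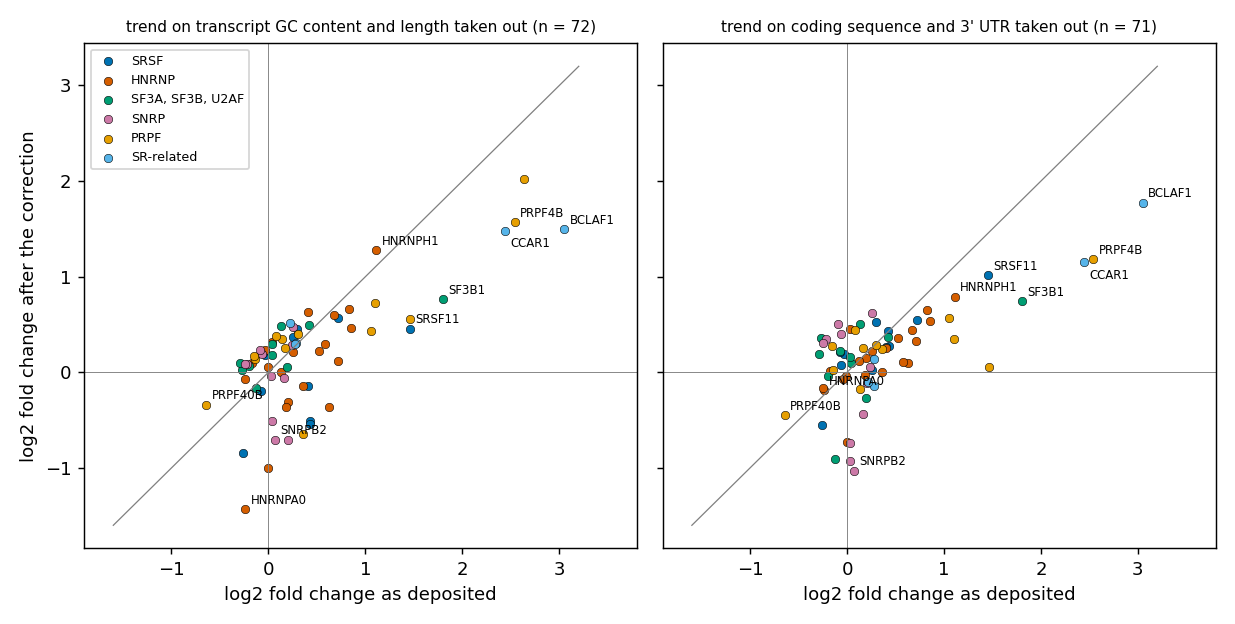
The log2 fold change after a correction (vertical axis) against the value as deposited (horizontal axis) for each splicing factor gene, on the left with the trend on GC content and length taken out (n = 72) and on the right with the trend on the coding sequence and 3′ UTR taken out (n = 71). Points in the lower right of a panel rose as deposited and are lower after the correction, as HNRNPU does on the left at -0.36.

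The start regions of the members were also read for binding motifs. RefSeq promoters of GRCh38.p14, from 250 bases before to 50 bases after the start, were found for 65 of the 73 symbols. The letters GGAATG, the core bound by TEAD factors, were searched on both strands because the study concerns YAP and TEAD, and CCGGAAG, a core of ETS factors, because such sites are common at the starts of housekeeping genes. The motifs share the letters GGAA but no match of one is a match of the other. GGAATG stood in 5 of 65 member promoters (7.69%), 4 of them of HNRNP genes, against 14.0% of all 27305. CCGGAAG stood in 21 of 65 (32.3%), against 10.7% of all. This motif holds a CpG (C followed by G), and the median count of CpG was 29 in member promoters and 14 in all promoters. The part of CpG content in the counts of CCGGAAG was not tested. By family, CCGGAAG was found in 7 of 10 SNRP promoters and 7 of 10 of the SF3 and U2AF genes. HNRNP promoters held it in 3 of 20, SRSF promoters in 2 of 11 and PRPF promoters in 2 of 9. By direction, 6 of the 13 promoters of genes that fell held CCGGAAG, against 1 of 7 of the genes at least 2-fold higher, and 1 of 13 and 1 of 7 held GGAATG. These sets have unlike thresholds, since falls of any size past the threshold were counted and smaller rises were not. Apart from PRPF6, the falls with CCGGAAG were SF3A2, SF3B2, SF3B6, SNRPB and SNRPD2, of the families that held it most often. Direction and family cannot be told apart here. The regions below show a promoter with each motif, in capitals, and the promoter of SF3B1, which holds neither. They lie at chr5:179634735-179635034 (HNRNPH1, minus strand), chr19:2236574-2236873 (SF3A2, plus strand) and chr2:197434979-197435278 (SF3B1, minus strand).
HNRNPH1: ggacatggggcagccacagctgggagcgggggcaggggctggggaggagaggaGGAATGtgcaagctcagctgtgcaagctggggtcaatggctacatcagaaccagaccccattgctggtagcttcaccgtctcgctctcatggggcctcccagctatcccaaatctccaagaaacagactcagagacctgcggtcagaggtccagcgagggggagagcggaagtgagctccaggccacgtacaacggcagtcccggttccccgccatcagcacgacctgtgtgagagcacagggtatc
SF3A2: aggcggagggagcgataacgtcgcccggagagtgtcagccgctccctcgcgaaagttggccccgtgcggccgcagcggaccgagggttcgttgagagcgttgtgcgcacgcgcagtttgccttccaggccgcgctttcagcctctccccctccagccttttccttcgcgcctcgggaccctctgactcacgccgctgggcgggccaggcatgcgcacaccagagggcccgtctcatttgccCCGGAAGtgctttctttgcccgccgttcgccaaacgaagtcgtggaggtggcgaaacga
SF3B1: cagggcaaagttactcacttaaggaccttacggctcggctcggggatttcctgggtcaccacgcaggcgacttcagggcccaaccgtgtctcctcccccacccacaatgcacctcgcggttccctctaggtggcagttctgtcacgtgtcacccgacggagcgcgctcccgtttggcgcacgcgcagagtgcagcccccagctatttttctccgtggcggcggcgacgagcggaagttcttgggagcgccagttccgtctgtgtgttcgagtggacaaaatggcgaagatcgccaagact
A match of letters is a description of the sequence only. The median GC content of these promoter regions was 62.7% for the members and 58.3% for all promoters. It was 60% for the genes at least 2-fold higher and 63.7% for those that fell.

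The rest of the splicing machinery was read from 5 further lists with 169 genes, of which 162 were listed. Of these, 84 rose (51.9%, against 32.6% of all genes) and 29 fell (17.9%, against 38.0%). After median scaling 57 were higher and 81 lower, beside 3306 and 8173 of all 14199 genes. At least 2-fold, 34 rose (21.0%, against 10.6% of all genes) and 0 fell (1.63% of all genes), and the median log2 fold change was 0.12. With the trend on GC content and length taken out, 9 of 160 were at least 2-fold changed, beside 5.49% of all genes. After the correction on the coding sequence and 3′ UTR 12 of 157 were, beside 3.82% of all genes. The 32 genes of SR-like proteins and SR kinases had the highest median of the 5 lists, 0.45, with 23 higher and 4 lower (18 and 9 after median scaling). Among them SREK1, a regulator of SR proteins, rose from 12.6 and 13.6 CPM to 74.2 and 81.1 CPM (log2 fold change 2.48, limma adjusted p = 2.44e-18). CLK3, a kinase of SR proteins, fell from 47.6 and 50.4 CPM to 35.6 and 33.8 CPM (log2 fold change -0.49, limma adjusted p = 2.22e-07), while its relatives CLK1 and CLK4 were at 1.08 and 1.39. Of 18 further U2 and splice site genes 8 rose and 2 fell, but after median scaling 4 were higher and 11 lower. U2SURP, a protein that travels with the U2 snRNP and SF3B1, rose from 18.3 and 17.4 CPM to 112 and 119 CPM (log2 fold change 2.62, limma adjusted p = 8.62e-20).

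Of the 35 genes of the catalytic and PRP19 complexes 17 rose and 6 fell, but after median scaling 12 were higher and 18 lower. CWC22, which deposits the exon junction complex, rose from 4.22 and 4.10 CPM to 28.9 and 30.1 CPM (log2 fold change 2.56, limma adjusted p = 3.69e-16). CCDC130 and XAB2, both found in catalytic spliceosomes, fell, from 54.3 and 53.8 CPM to 40.8 and 40.2 CPM (log2 fold change -0.41, limma adjusted p = 8.16e-07) and from 148 and 148 CPM to 124 and 116 CPM (log2 fold change -0.30, limma adjusted p = 2.16e-06). Of 25 further snRNP genes 6 rose and 8 fell (2 higher and 19 lower after median scaling), and 1 of the rises was at least 2-fold. Of 52 other splicing regulators 30 rose and 9 fell, 12 of the rises at least 2-fold, but after median scaling 21 were higher and 24 lower. Under the 2 corrections for composition, in the same order, U2SURP was at 1.04 and 0.94, SREK1 at 0.99 and 1.63 and CWC22 at 1.83 and 1.32. CLK3 was then at -0.20 and -0.11, CCDC130 at -0.06 and 0.12 and XAB2 at 0.05 and -0.08.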

How the data were processed

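The authors deposited 1 table of CPM values for 14431 genes. The labels name hg38 and RSEM 1.3.3 without their role, and the use of strand and the annotation are not given in the sources used here. The deposited CPM values gave whole reads for 100% of the entries (tolerance 0.05 reads), and these reads were recovered. CPM corrects neither for length nor for GC content. Between replicates the chi-square statistic per gene was 3.63 and 3.61, above sampling noise, so no libraries were merged. Groups followed the sample titles.

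The 14199 genes whose mean reached 1 CPM in either group were compared between siAARS1 and control on log2(CPM + 1) with limma 3.58.1 in R 4.3.3 (moderated statistics with a mean-variance trend), after the script was tested on simulated data. Fold changes are on that scale, which understates low genes. The p-values were adjusted by Benjamini-Hochberg over the whole table, with a threshold of 0.05. Intervals cover 95%. Transcripts, coordinates, GC content and length came from GENCODE v29, in which 72 members were found. Corrections used mgcv 1.9.3 on each library. The recovered reads were fitted with edgeR 4.0.16 and DESeq2 1.42.0 as alternatives.

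The members and lists were chosen with earlier results of these data known. Named were AARS1, the 7 singly listed genes, and in each family the 2 largest rises and 2 largest falls that were called, did not overlap and reached 5 CPM, with 3 and 3 from the other spliceosome lists. Other genes are given as members of their family or pair. SNRPN and the HNRNPCL genes were not analysed here. The values of 1 further member are included in the counts and are not reported here.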

Additional observations from a re-analysis of the deposited data

How the results depend on the processing

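The count of called members stayed within 1.5 times of 56 under every alternative run. Median scaling, which shifts all genes of a library alike, gave 25 members higher and 32 lower, beside 3306 and 8173 of all 14199 genes. It gave a median of -0.033 for the members and called 11 SR proteins and 2 SR-related cofactors. It turned SRRM2 (-0.00064), U2AF1 (-0.18) and U2AF2 (-0.086). Members higher and lower were 42 and 14 after quantile normalization, 44 and 10 in edgeR with TMM and 44 and 9 in DESeq2. In that order rises were 75%, 81.5% and 83.0% of the members' calls, beside 37.0%, 50.3% and 53.8% of the calls over all genes. The members' median, 0.19 as deposited, was 0.22 in edgeR with TMM and 0.24 in DESeq2, and ran from 0.16 (without control replicate 2) to 0.21 across fits that each left out 1 library, in which the lone library of an arm is assumed to vary like the other group. The correction for GC content and length, with or without the replicate block, called 11 SR proteins and turned PRPF31 (0.17), SNRPA (0.082), SNRPD2 (0.086), SF3A2 (0.097), SF3B5 (0.026) and XAB2 (0.052). The correction on the coding sequence and 3′ UTR left 5 of 71 members at least 2-fold changed, beside 3.82% of all genes. It turned SRRM1 (-0.15), SRRM2 (-0.099), PRPF31 (0.27), SNRPA (0.30), SNRPD2 (0.35), SF3A2 (0.19), SF3B5 (0.36) and CCDC130 (0.12). PRPF31 also missed the threshold at 0.01, in edgeR with TMM and in DESeq2. Of the alternative values of single named genes, 502 kept direction and call, 15 lost the call, 3 gained it and 23 changed sign. The cause was not tested. The groups share replicate numbers, which the labels do not describe as pairs. Across genes, libraries with the same number deviated from their group means with a correlation of 0.129, and with the replicate block 57 members were called, 44 higher and 13 lower. Depth limits SRSF12 most.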

Other observations

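Among the rows that the symbol rule left out, the readthrough transcript HNRNPUL2-BSCL2 stood at 83.6 and 83.4 CPM in the controls against 71.2 and 70.2 CPM after knockdown. The pseudogene HNRNPA1P48 stood at 12.2 and 11.1 CPM, then 12.5 and 14.4 CPM, and the other pseudogene rows lay between 0.616 and 5.45 CPM. No test was run on them.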
